A study of Mus musculus with 4 samples.

Results

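The TGF-β ligands, receptors and SMADs studied here are 9 genes: the ligands Tgfb1, Tgfb2 and Tgfb3, the receptors Tgfbr1 and Tgfbr2, the receptor-activated SMADs Smad2 and Smad3, the common-mediator SMAD Smad4 and the inhibitory SMAD Smad7. The genes were picked by symbol from the 27179 genes of the count table, and all 9 were found and passed the filter on low counts. RNA-seq was performed on MC38, a wild-type mouse colon cancer cell line of the C57BL/6 strain, with 1 library for each of 4 conditions: untreated cells in normoxia (20% oxygen), IFN-γ-treated cells in normoxia, untreated cells in hypoxia (1.5% oxygen) and IFN-γ-treated cells in hypoxia. The study's methods give IFN-γ at 5 ng/mL for 24 h for most of its experiments, without a separate statement for these libraries, and the time in hypoxia is not given in the sources used here. A pair of questions follows from this design: whether IFN-γ or low oxygen moved the transcripts of the TGF-β pathway, and whether the IFN-γ change was the same at the 2 oxygen levels.

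TGF-β is secreted as a latent complex and, once released, binds TGFBR2, which recruits and activates the kinase TGFBR1. TGFBR1 phosphorylates SMAD2 and SMAD3, which join SMAD4 and enter the nucleus to regulate target genes, while SMAD7 is induced by the signal and blocks the receptor. In the colon the pathway restrains epithelial growth and is often lost in carcinoma through mutation of its receptors or SMADs, and TGF-β from the tumor bed is known for excluding T cells. IFN-γ is known to oppose TGF-β in some cells by raising SMAD7.

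The libraries held 34302971 to 34537939 counts on genes, and the 9 genes had from 57 (Tgfb2) to 3202 counts (Smad4) each. Levels are given as normalized CPM, the count scaled to the library size, and 3 counts, the level that a count of 0 allows, equal 0.0866 to 0.0876 CPM. The response genes Irf1 and Gbp2 were higher in both IFN-γ libraries, and the hypoxia genes Car9, Vegfa and Egln3 were higher in both hypoxic libraries (log2 changes of 2.43 and 5.20 and of 0.74 to 2.14), which are the directions the labels give. The epithelial markers Epcam, Cdh1, Krt18, Cdx2 and Cldn4 were at 0 to 2 counts in every library and the 10 epithelial markers summed to 4.37 to 5.69 CPM. Of the others, Krt8 had 48 to 90 counts, Muc1 46 to 110, Krt20 12 to 22, Vil1 7 to 17 and Krt19 0 to 18. The 5 fibroblast markers summed to 35.5 to 43.2 CPM, most of it from Pdgfra with 1077 to 1341 counts, while Pdgfrb had 50 to 93, Dcn 52 to 72, Lum 2 to 4 and Thy1 0. Some epithelial markers, among them Epcam and Cdh1, were thus near or at 0 in cells labelled as colon cancer cells. Krt8 and Muc1 had counts like those of Pdgfrb and Dcn. Among the immune markers, which summed to 5.05 to 7.03 CPM, Cd3e, Adgre1 and Itgam were at 0 or 1 count, Ptprc had 2 to 12 and Cd68 had 170 to 236. The 4 endothelial markers summed to 0.904 to 1.56 CPM, with Kdr at 0 in every library, Tek at 2 to 7 counts, Pecam1 at 0 to 18 and Cdh5 at 16 to 50.

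The fitted log2 changes of the 9 genes lay between -0.33 (Tgfb3) and 0.07 (Smad2) with IFN-γ and between -0.27 (Tgfb2) and 0.17 (Smad3) with hypoxia. IFN-γ lowered 1 of the 9 genes, Tgfb3, and hypoxia lowered 1, Tgfb1, by the quasi-likelihood test of edgeR, with p-values adjusted over all 13580 genes tested (Benjamini-Hochberg). Of all genes tested, IFN-γ lowered 1.1% and raised 4.76%, and hypoxia lowered 6.83% and raised 8.21%. With 9 genes, 1 call is too few to set against these shares. The counts of raised members were 0 for IFN-γ and 0 for hypoxia, also at an unadjusted p under 0.05 and by DESeq2, which called no member in either direction. In bulk libraries such as these, fewer expressing cells and less RNA per cell cannot be told apart. The median fitted log2 change of the 9 genes was -0.07 with IFN-γ and -0.00 with hypoxia, beside -0.01 and 0.00 over all genes tested. In this fit the spread came from departures from additive effects of the 2 stimuli, shared over genes, at 1 residual degree of freedom, since no condition was repeated. A gene's own departure hardly entered its SE. The IFN-γ SE was 0.089 for Tgfbr1 and 0.091 for Smad3, at means of 770 and 734.5 counts. Their IFN-γ changes differed between the oxygen levels by 0.03 and 0.32.

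**Figure D1:**
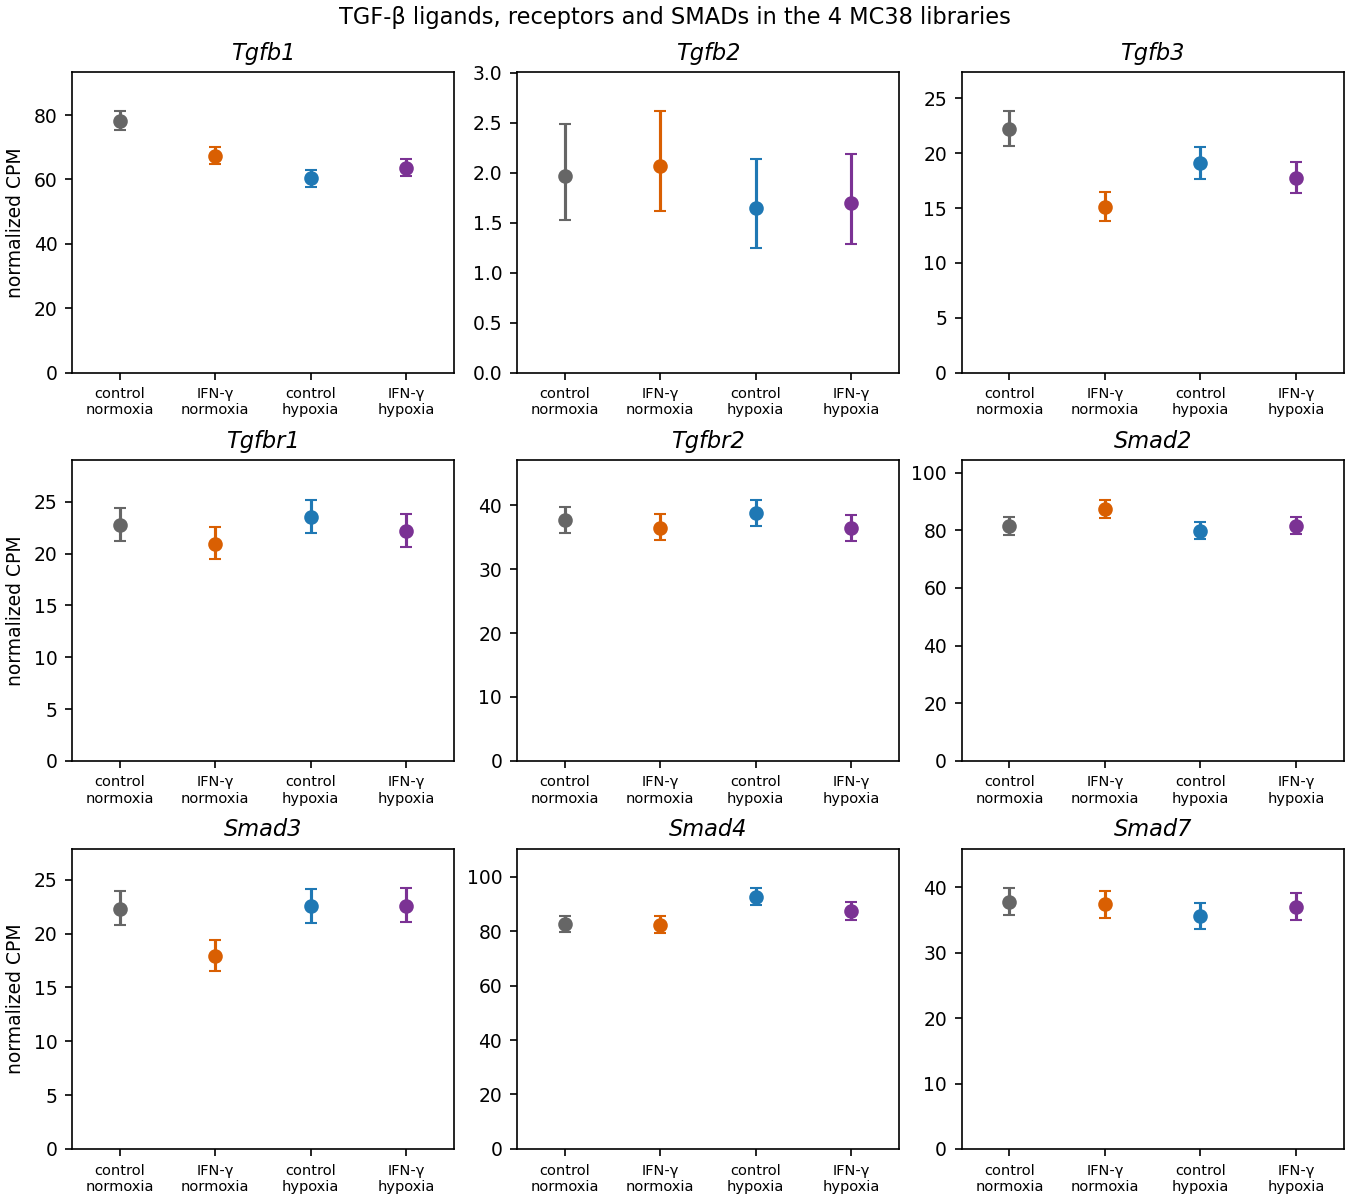
Normalized CPM (y axis, from 0) of each of the 9 genes in the 4 libraries (x axis), 1 point per library, with bars for the 95% Poisson interval of the count, which covers counting error only. Tgfb1 is highest in the untreated normoxic library at 78.1 CPM, Tgfb3 and Smad3 are lowest in the IFN-γ-treated normoxic library at 15.1 and 17.9 CPM, and the receptors and Smad7 lie nearly flat.

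Tgfb1 (NCBI gene 21803, chr7:25687002-25705077, plus strand, mm10) encodes the main TGF-β ligand of many tissues. It was at 78.1 CPM in untreated normoxia, 67.4 with IFN-γ in normoxia, 60.4 in untreated hypoxia and 63.6 with IFN-γ in hypoxia. Both hypoxic libraries were below both normoxic ones, and the untreated normoxic library stood highest. Hypoxia lowered Tgfb1 with a fitted log2 change of -0.23 ± 0.07 (SE, 4 libraries), at an adjusted p of 0.00936 by the quasi-likelihood test of edgeR (Benjamini-Hochberg adjusted). Most of that change lay in untreated cells: the log2 change was -0.37 in the untreated pair (95% counting interval -0.46 to -0.29) and -0.08 in the IFN-γ pair (-0.17 to 0.00). The call was lost under DESeq2's Wald test (adjusted p 0.268, Benjamini-Hochberg), without the filter on low counts (0.0585) and when 2 libraries were set against 2 without the IFN-γ term (0.267). With IFN-γ, Tgfb1 was lower in normoxia by a log2 change of -0.21 (-0.29 to -0.13) and was at 0.08 in hypoxia (-0.01 to 0.16). The fitted IFN-γ change of Tgfb1 over both oxygen levels was -0.07 ± 0.07 (SE) and did not pass the test.

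The 250 bases before the annotated start of Tgfb1 are shown because this was the gene lowered by hypoxia, and hypoxia-inducible factors (HIF) bind the core letters ACGTG or GCGTG. The sequence is from RefSeq (GRCm38.p6, chr7:25686752-25687001, plus strand), with the HIF core in capitals as it reads on the plus strand, where the match lies on the opposite strand.
Tgfb1 promoter: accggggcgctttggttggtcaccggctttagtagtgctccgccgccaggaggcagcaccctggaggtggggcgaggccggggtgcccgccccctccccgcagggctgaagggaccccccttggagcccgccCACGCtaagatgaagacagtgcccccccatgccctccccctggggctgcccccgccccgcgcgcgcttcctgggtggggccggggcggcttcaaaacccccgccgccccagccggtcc
The capitals lie 118 bases before the start. A HIF core on either strand was found in 38.6% of the 32851 promoters in the table. The letters TTCNNNGAA, the GAS element of the IFN-γ response, were absent from this window and present in 7.02% of all promoters. A HIF core was also present in the windows of Tgfb2, Tgfbr2, Smad3 and 1 of the 2 entries of Tgfbr1, none of which passed the hypoxia test. A match of letters is a description of the sequence only.

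Tgfb3 (NCBI gene 21809, chr12:86056743-86079041, minus strand), the ligand needed for palate fusion, was at 22.2 CPM in untreated normoxia, 15.1 with IFN-γ in normoxia, 19.1 in untreated hypoxia and 17.7 with IFN-γ in hypoxia. Both IFN-γ libraries were below both untreated ones. IFN-γ lowered Tgfb3 with a fitted log2 change of -0.33 ± 0.10 (SE), at an adjusted p of 0.0129 by the quasi-likelihood test of edgeR (Benjamini-Hochberg adjusted). The change was larger in the normoxic pair, at -0.55 (95% counting interval -0.72 to -0.39), than in the hypoxic pair, at -0.11 (-0.27 to 0.06). This call passed under 0 of the 6 alternative fits, whose adjusted p-values ran from 0.0516 to 0.9999 with log2 changes of -0.35 to -0.32. These fits used the same counts, so their similar size is not support for the change. Hypoxia went with opposite changes of Tgfb3: -0.22 (-0.37 to -0.07) in untreated cells and 0.23 (0.06 to 0.40) in IFN-γ-treated cells. The fitted hypoxia change was accordingly near 0, at -0.00 ± 0.10 (SE). Exons of Tgfb3 overlap those of the opposite-strand genes Gm37804 over 163 bases and Gm48008 over 257 bases (4.82% and 7.6% of the exon length), and the strand setting used in counting is not given in the sources used here.

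Tgfb2 (chr1:186622787-186709697), the ligand best known from the eye and heart, was the least abundant of the 9 genes, with 68, 71, 57 and 58 counts in the same order of libraries. The normoxic libraries held slightly more counts than the hypoxic ones. The fitted log2 changes were 0.06 ± 0.28 (SE) with IFN-γ and -0.27 ± 0.28 (SE) with hypoxia. At this depth the intervals of the 4 pairs of libraries reached from -0.82 to 0.59, so a change within these bounds could not be seen.

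The receptors varied little between the libraries. Tgfbr1 (chr4:47353222-47414926), the type I receptor kinase, was at 22.8 CPM in untreated normoxia, 20.97 with IFN-γ in normoxia, 23.6 in untreated hypoxia and 22.2 with IFN-γ in hypoxia. Tgfbr2 (chr9:116087695-116175363), the ligand-binding type II receptor, was at 37.6, 36.5, 38.8 and 36.4 CPM in the same order. Both receptors were lower with IFN-γ at each oxygen level, by log2 changes of -0.12 to -0.04 whose counting intervals reached over 0. The fitted IFN-γ change was -0.10 ± 0.09 (SE) for Tgfbr1 and -0.07 ± 0.08 for Tgfbr2, and the fitted hypoxia change was 0.06 ± 0.09 and 0.02 ± 0.08. Neither receptor passed the test for either stimulus. Over the 4 pairs of libraries the intervals of Tgfbr1 stayed within -0.27 and 0.23, and those of Tgfbr2 within -0.20 and 0.15.

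**Figure D2:**
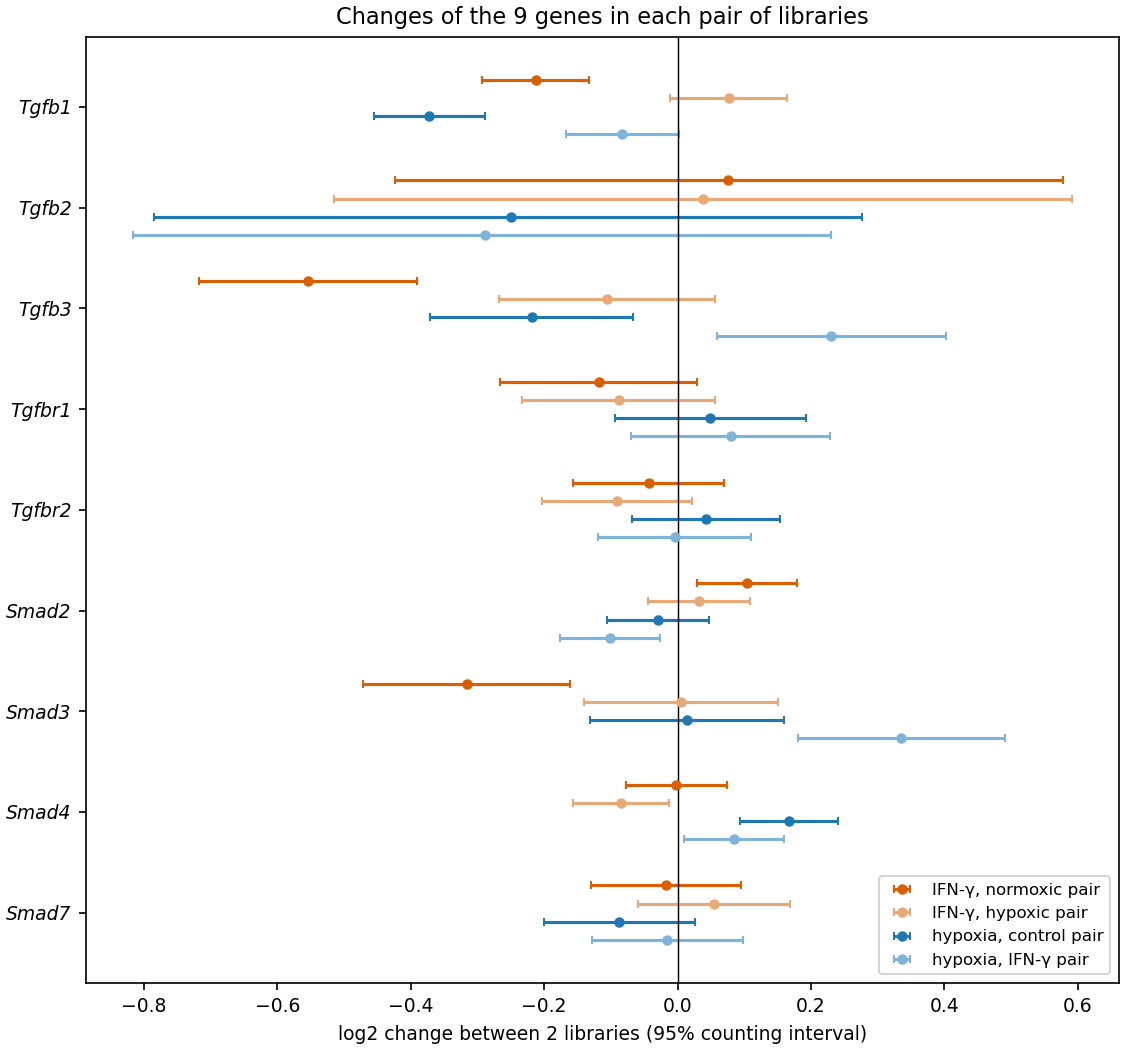
Log2 change of each of the 9 genes (rows) between 2 libraries (x axis), with the 95% counting interval as a bar: orange for IFN-γ against untreated at each oxygen level, blue for hypoxia against normoxia with and without IFN-γ. Tgfb3 lies at -0.55 in the normoxic IFN-γ pair and on opposite sides of 0 in the hypoxia pairs, and the intervals of the receptors and Smad7 all reach over 0.

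Of Smad2, Smad3, Smad4 and Smad7, Smad3 had the widest range over the 4 libraries. Smad3 (chr9:63646766-63757994), a receptor-activated SMAD that binds DNA directly, was at 22.3 CPM in untreated normoxia, 17.9 with IFN-γ in normoxia, 22.5 in untreated hypoxia and 22.6 with IFN-γ in hypoxia. The IFN-γ-treated normoxic library stood below the other 3, which lay between 22.3 and 22.6 CPM. The log2 change with IFN-γ was -0.32 (95% counting interval -0.47 to -0.16) in normoxia and 0.01 (-0.14 to 0.15) in hypoxia. The fitted changes of Smad3 did not pass, at -0.15 ± 0.09 (SE) with IFN-γ and 0.17 ± 0.09 with hypoxia, with adjusted p-values of 0.496 and 0.209 by the quasi-likelihood test of edgeR (Benjamini-Hochberg adjusted).

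Smad2, Smad4 and Smad7 lie on chromosome 18. Smad2, the partner of Smad3 that needs cofactors to reach DNA, was at 81.4 CPM in untreated normoxia, 87.4 with IFN-γ in normoxia, 79.7 in untreated hypoxia and 81.5 with IFN-γ in hypoxia. The same IFN-γ-treated normoxic library that was lowest for Smad3 was highest for Smad2. The fitted changes of Smad2 were 0.07 ± 0.07 (SE) with IFN-γ and -0.07 ± 0.07 with hypoxia. Smad4, the shared partner of all activated SMADs, was at 82.5, 82.4, 92.6 and 87.3 CPM in the same order. Both hypoxic libraries were above both normoxic ones, and the counting interval was above 0 in the untreated pair, at a log2 change of 0.17 (0.09 to 0.24), and in the IFN-γ pair, at 0.08 (0.01 to 0.16). The fitted hypoxia change of Smad4, 0.13 ± 0.06 (SE), did not pass, with an adjusted p of 0.191 by the quasi-likelihood test of edgeR (Benjamini-Hochberg adjusted).

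Smad7, the feedback inhibitor, was at 37.8 CPM in untreated normoxia, 37.4 with IFN-γ in normoxia, 35.6 in untreated hypoxia and 37.0 with IFN-γ in hypoxia. The counting interval of each of the 4 pairs of libraries reached over 0. The log2 change with IFN-γ was -0.02 (95% counting interval -0.13 to 0.10) in normoxia and 0.05 (-0.06 to 0.17) in hypoxia. The fitted IFN-γ change was 0.02 ± 0.08 (SE), in cells where Irf1 rose by 2.43 on the log2 scale in the same fit. A rise of Smad7 above 0.17 on the log2 scale at the measured time lay outside the counting intervals of both IFN-γ pairs, without regard to the spread between cultures, which was not measured.

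The IFN-γ change differed between the oxygen levels beyond counting error for 3 of the 8 members with at least 100 counts in every library, beside 34.5% of the 10443 genes with as many counts. This share is near the background and is not a result about the pathway. The difference, hypoxia minus normoxia, was 0.45 (95% counting interval 0.22 to 0.67) for Tgfb3, 0.32 (0.11 to 0.53) for Smad3 and 0.29 (0.17 to 0.41) for Tgfb1. For the other 5 genes it lay between -0.08 (Smad4) and 0.07 (Smad7), with 0 inside each interval. All 3 of the larger differences had the same sign, with IFN-γ going with the lower level in normoxia and with little change in hypoxia. They rest on the same libraries, and the share of all genes with that sign was not taken, so the shared sign is description only. A difference between the oxygen levels was not tested, since that needs replicate libraries.

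To compare levels between genes, counts were divided by the length of all exons of the gene and by the library size. In CPM per kilobase, Smad4 was highest, with a mean of 23.2 (range 22.19 to 24.96 over the 4 libraries). Tgfb1 followed at 13.4 (11.97 to 15.49), Smad2 at 9.40 (9.08 to 9.96) and Smad7 at 8.17 (7.88 to 8.37). Tgfb3 at 5.47 (4.47 to 6.56) and Tgfbr2 at 4.56 (4.45 to 4.74) came next, and their ranges overlapped. Smad3 at 3.85 (3.23 to 4.08) and Tgfbr1 at 3.42 (3.21 to 3.60) also overlapped, and Tgfb2 was far below at 0.318 (0.285 to 0.358). With the longest transcript as the length, Tgfb1 moved to 26.2 and Smad4 to 25.5, so the order of the top 2 genes depends on the length used. The exons of Tgfb1 span 5.042 kb in all and 2.573 kb in the longest transcript.

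**Figure D3:**
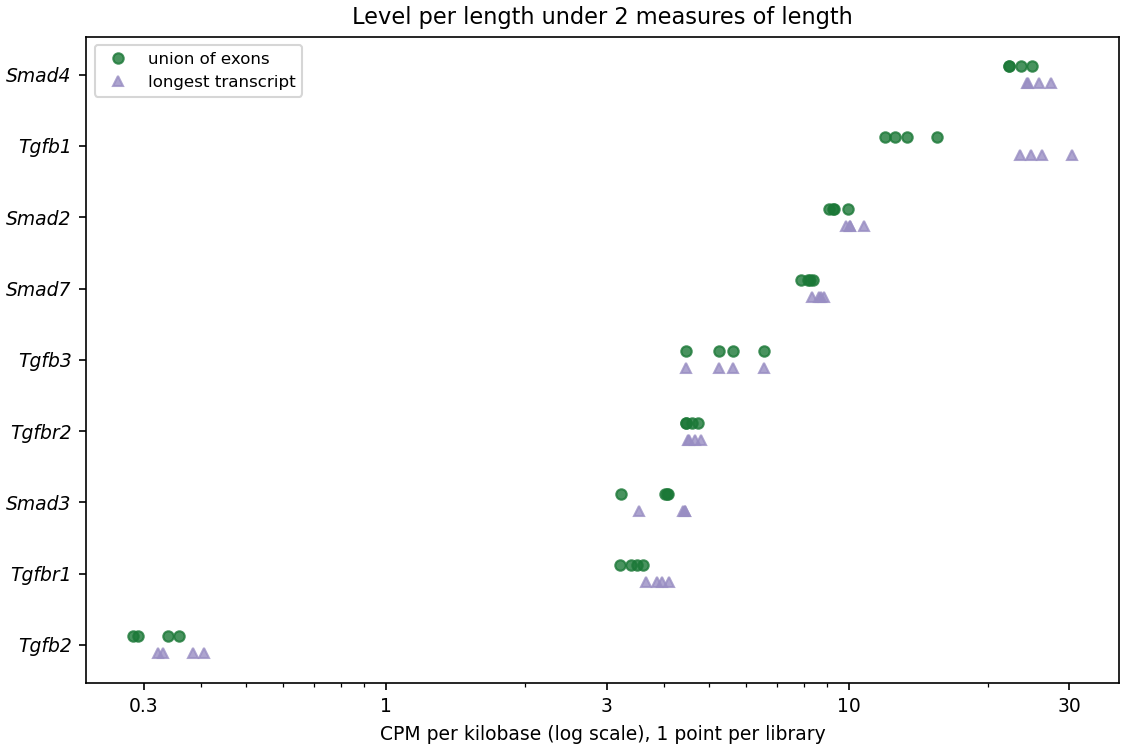
Level of each gene (rows) in CPM per kilobase (x axis, log scale), 1 point per library, with length taken as all exons (circles) or as the longest transcript (triangles). Tgfb2 lies below every other gene under both lengths, and Tgfb1 moves from a mean of 13.4 to 26.2.

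Tgfb1 made up most of the ligand transcripts. Per length, its share of the 3 ligands was 66.9% to 73.5% over the libraries, with 24.5% to 31.5% for Tgfb3 and 1.51% to 1.97% for Tgfb2. With the longest transcript as the length, the share of Tgfb1 was 79.7% to 84.3% and that of Tgfb3 14.4% to 19.2%. A ratio of genes within a library does not depend on the library's size. The ratio of Tgfb3 to Tgfb1 per length was 0.423 in untreated normoxia (95% interval 0.390 to 0.459), 0.334 with IFN-γ in normoxia (0.303 to 0.368), 0.471 in untreated hypoxia (0.431 to 0.514) and 0.415 with IFN-γ in hypoxia (0.379 to 0.454). The IFN-γ-treated normoxic library was lowest, and its interval did not reach the other 3. The ratio of Smad2 to Smad3 per length was 3.08 in that library (2.82 to 3.37) and 2.24 to 2.30 in the other 3 libraries. The ratio of Smad4 to Smad3 was 6.87 there (6.29 to 7.51), and its interval overlapped that of untreated hypoxia, at 6.14 (5.68 to 6.65). The ratio of Tgfbr2 to Tgfbr1 was 1.31 to 1.39, with overlapping intervals. The ratios apart in the IFN-γ-treated normoxic library reuse the Tgfb3 and Smad3 counts of that 1 library described above. The share of other gene pairs as far apart was not taken, so these ratios are description only.

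By the smallest root mean square difference of the centred log2 CPM over the 4 libraries, among 10694 genes averaging 100 counts or more, the genes most like Tgfb3 were Accs (0.0247), Fam161b (0.0333) and Cfp (0.0358). Those most like Tgfb1 were Crtc1 (0.0107), Donson (0.0169) and NCBI gene 100861803 (0.0141), which matched no symbol. With 4 libraries and this many candidates, close profiles are easy to find.

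The rest of the pathway was described from 6 lists of 90 genes, of which 73 were tested. IFN-γ raised 4 and lowered 2 of the 73 genes (5.48% and 2.74%, beside 4.76% and 1.1% of all genes tested). Hypoxia raised 15 and lowered 2 (20.5% and 2.74%, beside 8.21% and 6.83%). The median fitted log2 change over the 73 genes was 0.00 with IFN-γ and 0.01 with hypoxia. By DESeq2's Wald test the counts were 3 for IFN-γ (4.11%, beside 2.72% of all genes tested) and 5 for hypoxia (6.85%, beside 4.24%). The single lists hold few genes, so their shares are given below as description only.

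**Figure D4:**
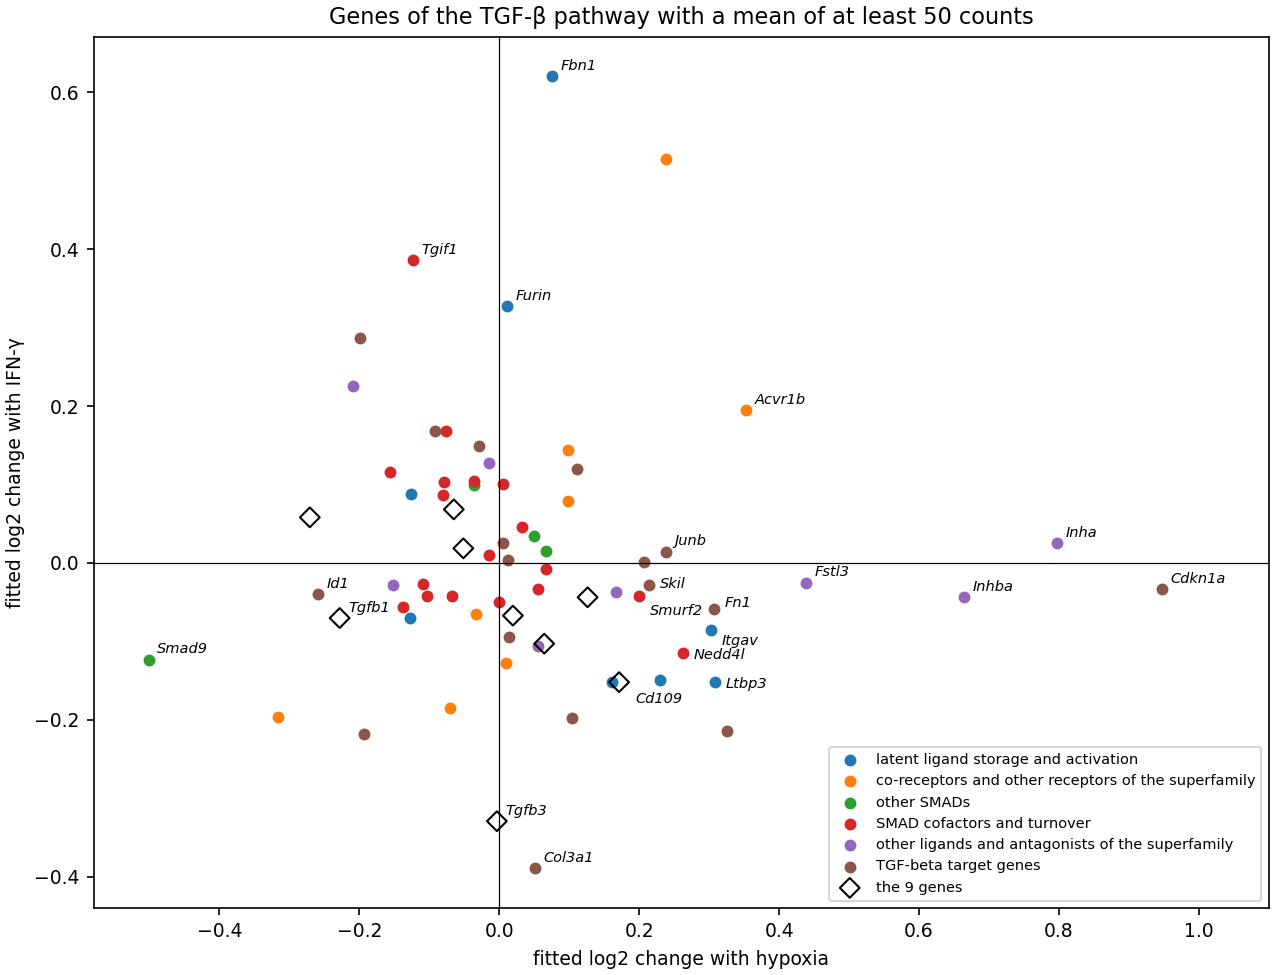
Fitted log2 change with hypoxia (x axis) and with IFN-γ (y axis) of 63 tested pathway genes averaging 50 counts or more (colored points, by list) and of the 9 ligand, receptor and SMAD genes (open diamonds). The 21 labelled genes passed the test for at least 1 stimulus; Cdkn1a lies farthest right at 0.95 and Fbn1 highest at 0.62, while the 9 genes gather within -0.33 and 0.17 on both axes.

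The list for latent TGF-β storage and activation also holds the co-receptor Cd109. Of the 10 tested genes of this list, IFN-γ raised 2 (20%) and hypoxia raised 3 (30%). The shares of all genes tested were 4.76% and 8.21%, and DESeq2 called 2 and 1 of the list. Fbn1, the fibrillin that anchors latent complexes in the matrix, had 1632 counts in untreated normoxia, 2272 with IFN-γ in normoxia, 1565 in untreated hypoxia and 2605 with IFN-γ in hypoxia. Both IFN-γ libraries were above both untreated ones, and IFN-γ raised Fbn1 by 0.62 ± 0.07 (log2, SE; adjusted p 1.58e-16 by the quasi-likelihood test of edgeR (Benjamini-Hochberg adjusted)), a call that held in 6 of 6 alternatives. Furin, the protease that cleaves the TGF-β precursor, rose by 0.33 ± 0.06 with IFN-γ and lost its call in 1 of 6 alternatives. Hypoxia raised Itgav, the αv integrin chain that helps release TGF-β, by 0.30 ± 0.06, Ltbp3, a latent TGF-β binding protein, by 0.31 ± 0.07, and Cd109, a co-receptor that dampens the signal, by 0.23 ± 0.07. These 3 calls were lost in 1, 2 and 3 of 6 alternatives. For Ltbp3 the log2 change with hypoxia was 0.15 in untreated cells and 0.47 with IFN-γ. The remaining tested genes of this list, Ltbp1, Ltbp2, Ltbp4, Itgb5 and Thbs1, did not pass for either stimulus. The activating integrin chains Itgb6 and Itgb8 and the latent TGF-β docking protein Lrrc32 were at 0 to 4 counts.

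Of the 11 tested co-receptors and related receptors, hypoxia raised 2 (18.2%, beside 8.21% of all genes tested), and DESeq2 called 0. Acvr1b, the activin type I receptor that also signals through SMAD2 and SMAD3, rose by 0.35 ± 0.12 (log2, SE) and lost its call in 3 of 6 alternatives. Acvrl1, a type I receptor known from endothelium and named here after its values were seen, had 14 counts in untreated normoxia, 8 with IFN-γ in normoxia, 58 in untreated hypoxia and 35 with IFN-γ in hypoxia. Hypoxia raised Acvrl1, with both hypoxic libraries above both normoxic ones, and the call held in 3 of the 4 alternatives that tested it. Of the endothelial markers, in the same order of libraries, Cdh5 had 50, 16, 36 and 30 counts, Pecam1 0, 10, 11 and 18, Tek 4, 5, 7 and 2, and Kdr 0 in each. Pecam1 was higher in hypoxia in both pairs, at counts as low as those of Acvrl1, and the part of these markers in the Acvrl1 change was not tested. Tgfbr3, the co-receptor betaglycan that presents TGF-β2, had 116, 168, 140 and 194 counts in the same order, higher in each IFN-γ library, and its fitted change of 0.51 ± 0.18 missed the threshold with an adjusted p of 0.0609 by the quasi-likelihood test of edgeR (Benjamini-Hochberg adjusted). The count of genes of this list called for IFN-γ was 0 by edgeR, 0 by DESeq2 and 1 at an unadjusted p under 0.05.

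Among the 4 other SMADs, all tested, hypoxia lowered 1 (25%, beside 6.83% of all genes tested). This was Smad9, a SMAD of the BMP branch, with 364 and 296 counts in normoxia and 228 and 236 in hypoxia. Its fitted log2 change was -0.50 ± 0.14 (SE), and the call was lost in 2 of 6 alternatives. Smad1 and Smad5, which also serve BMP receptors, and the inhibitory Smad6 did not pass, with log2 changes of 0.01, 0.03 and 0.10 with IFN-γ and of 0.07, 0.05 and -0.04 with hypoxia. Of the 18 tested cofactors and turnover genes, IFN-γ raised 5.56% and hypoxia raised 11.1%, beside 4.76% and 8.21% of all genes tested. These shares are near the background and are not a result about the list. DESeq2 called 0 genes of this list and 0 of the other SMADs for either stimulus. The gene raised by IFN-γ was Tgif1, a SMAD corepressor, at 0.39 ± 0.08. Hypoxia raised the ubiquitin ligases Smurf2, by 0.20 ± 0.07, and Nedd4l, by 0.26 ± 0.08, both of which target receptors or SMADs for degradation. Tgif1, Smurf2 and Nedd4l lost their calls in 2, 3 and 2 of 6 alternatives.

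Of the 9 tested other ligands and antagonists of the superfamily, hypoxia raised 3 (33.3%, beside 8.21% of all genes tested), and DESeq2 called 1. Inha, the inhibin α chain, had 317 counts in untreated normoxia, 297 with IFN-γ in normoxia, 515 in untreated hypoxia and 551 with IFN-γ in hypoxia. Both hypoxic libraries were well above the normoxic ones, and hypoxia raised Inha by 0.80 ± 0.12 (log2, SE; adjusted p 3.44e-10 by the quasi-likelihood test of edgeR (Benjamini-Hochberg adjusted)), a call that held in 6 of 6 alternatives. Fstl3, a secreted antagonist of activins, rose by 0.44 ± 0.11 and lost its call in 2 of 6 alternatives. Inhba, the activin A chain, rose by 0.66 ± 0.24, a call that held in 0 of the 5 alternatives that tested it. For IFN-γ the count of called genes in this list was 0 by edgeR, 0 by DESeq2 and 0 at an unadjusted p under 0.05.

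The calls among the TGF-β target genes went in both directions, with 1 raised and 2 lowered by IFN-γ and 5 raised and 1 lowered by hypoxia of 21 tested. For hypoxia these were 23.8% and 4.76%, beside 8.21% and 6.83% of all genes tested. For IFN-γ they were 4.76% and 9.52%, beside 4.76% and 1.1%. DESeq2 called 1 lowered by IFN-γ and 3 raised by hypoxia. Cdkn1a, the cell cycle inhibitor p21, had 3125 counts in untreated normoxia, 3107 with IFN-γ in normoxia, 6174 in untreated hypoxia and 5832 with IFN-γ in hypoxia. Both hypoxic libraries were above both normoxic ones. Hypoxia raised Cdkn1a by 0.95 ± 0.06 (log2, SE), a call that held in 6 of 6 alternatives. Hypoxia also raised Fn1, fibronectin, by 0.31 ± 0.05, Junb, an AP-1 subunit, by 0.24 ± 0.06, and Skil, a SMAD corepressor induced by TGF-β, by 0.21 ± 0.07. The calls of Fn1, Junb and Skil held in 4, 5 and 3 of 6 alternatives. For Fn1 the log2 change with hypoxia was 0.07 in untreated cells and 0.55 with IFN-γ. Hypoxia lowered Id1, an inhibitor of differentiation and a BMP target, at -0.26 ± 0.06, and the call held in 4 of 6 alternatives.

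With IFN-γ, the target Col3a1, a fibrillar collagen chain, was lowered, at -0.39 ± 0.07 (log2, SE), and the call held in 5 of 6 alternatives. Acta2, smooth muscle actin, named after its values were seen, was raised from 7 and 6 counts in the untreated libraries to 17 and 30 with IFN-γ, a call that held in 0 of the 5 alternatives that tested it. Of the 21 tested targets, 18 did not pass for IFN-γ and 15 did not pass for hypoxia. Several common targets were hardly present: Ccn2 was at 0 in every library, which allows up to 0.0876 CPM, Pmepa1 had 4, 2, 4 and 0 counts, and Tgfbi had 0, 0, 5 and 4. Snai1, Twist1 and Zeb2, transcription factors of the mesenchymal state, were present at 832 to 1174 counts and did not pass for either stimulus.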

How the data were processed

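RNA-seq was performed on 4 MC38 libraries, 1 per condition. Per the labels, poly-A RNA was selected and strand-specific paired-end libraries were made by a dUTP method. The study's methods name HISAT2 for alignment and the submitters' processing notes name featureCounts and mm10; versions, the annotation and the strand setting are not given in the sources used here. The deposited table holds raw counts per NCBI gene, used as deposited. Gene symbols and positions came from a RefSeq table (GRCm38.p6), which matched 25275 of 27179 IDs.

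Counts were tested with edgeR 4.0.16 in R 4.3.3 (quasi-likelihood test, TMM normalization, filter with a minimum of 10 counts, additive terms for oxygen and IFN-γ, Benjamini-Hochberg threshold 0.05 over 13580 genes). The common dispersion was 0.00222 (biological coefficient of variation 4.71%). Changes between 2 libraries used 0.5 added counts and exact Clopper-Pearson 95% intervals of the counts; intervals of the difference used Poisson errors, and Poisson intervals were drawn for CPM. All intervals and floors cover counting error only, and reads without molecular identifiers are not independent molecules. Each p-value tests the additive effect of a stimulus against a spread from departures from additivity among 4 libraries, not the spread between cultures. Lengths came from GENCODE M21 (GRCm38). Promoter windows were matched for 5 of the 9 genes.

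The members and lists were chosen with earlier results of these data known. Named from the lists were Tgfbr3, Smad1, Smad5, Smad6, Ccn2, Skil and Pmepa1 and, per list and stimulus, up to 4 called genes averaging 50 counts or more and the largest change. Some genes that these rules would name are not reported here by name, though the counts over their lists include them. Markers and other listed genes outside this rule were named after their values were seen. Alternatives were DESeq2 size factors, total counts, DESeq2 1.42.0, no filter, at least 10 counts in every library, 2 libraries against 2, a log2 change of at least 0.5, 5 added counts, each pair alone and the longest transcript as the length. The scripts were tested on simulated data.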

Additional observations from a re-analysis of the deposited data

Results flagged for a closer look

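The hypoxia change of Tgfb3, a TGF-β ligand, took opposite directions in the 2 pairs of libraries: a log2 change of -0.22 in untreated cells and 0.23 in IFN-γ-treated cells, with 0 outside the counting interval of each. The difference between these 2 values, 0.45, is the same quantity as the difference of the IFN-γ changes of Tgfb3 given above. It is therefore not a further result, and the share of all genes with such opposite changes was not taken. The difference was not tested, since each value rests on 2 libraries.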

How the results depend on the processing

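The fitted log2 changes of the 9 genes kept their direction wherever they had passed the test, and the calls were less stable. The count of members changed by IFN-γ fell from 1 to 0 in all 7 alternatives: DESeq2 size factors, total counts, DESeq2's Wald test, no filter, at least 10 counts in every library, 2 libraries against 2, and a log2 change of at least 0.5. The count changed by hypoxia fell from 1 to 0 with DESeq2's Wald test, no filter, 2 against 2 and a log2 change of at least 0.5, and was 1 with the other 3. Of the pathway genes, 6 changed with IFN-γ, and 3 did so with DESeq2's Wald test, 1 with 2 against 2 and 2 with the log2 minimum; for hypoxia 17 became 5, 2 and 6. Over all genes DESeq2 called 353 raised and 16 lowered with IFN-γ (edgeR 647 and 149) and 362 and 214 with hypoxia (1115 and 927), and 2 against 2 gave 239 and 3, and 150 and 26. Without a filter 18812 genes were tested. The cause of the lost calls was not tested for any of the alternatives. Each condition had 1 library, so leaving out a library would leave a condition empty; the pairs alone stand in the report. The additive fit compares IFN-γ within each oxygen level and hypoxia within each IFN-γ state, and 2 against 2 is the comparison without that block. No paired analysis by replicate number was possible because each condition has 1 library. Depth limits Tgfb2 most, at 57 to 71 counts.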
